A study of Mus musculus with 6 samples.

Results

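Genes with 3 or more NF-YA peaks were examined to describe how the NF-YA signal of 1 gene was divided among its peaks and where these peaks lay relative to the transcription start site (TSS). A gene was taken when its identifier occurred in at least 3 lines of the unified peak table, which held 9056 peaks, 6191 of them assigned to 1 of 5024 genes. This gave 186 genes (3.70% of the genes with a peak) with 622 peaks, 10.0% of the gene-assigned peaks and 6.87% of all peaks. The number of peaks was 3 for 141 genes, 4 for 33, 5 for 7, 6 for 3 and 7 for 2. The peaks were called in the same libraries that gave the levels, so the number of peaks per gene and all levels below are a description without a test. The data came from CUT&RUN, in which an antibody tethers a nuclease to the protein of interest and the released DNA fragments are sequenced. The series comprised 3 libraries with an antibody against NF-YA and 3 with control IgG. All were prepared from cultured, activated muscle stem cells (MuSCs) of wild-type C57BL/6 mice, which the study describes as 8 to 20 weeks old and of both sexes. The IgG libraries were not analysed here, and the identity of the cells could not be checked on markers, since peak levels do not measure expression.

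NF-Y is a trimer of NF-YA, NF-YB and NF-YC. NF-YB and NF-YC pair through histone folds, and NF-YA inserts into the minor groove and provides the recognition of the CCAAT box. CCAAT boxes are known from promoters shortly upstream of the TSS, among them promoters of cell cycle, chaperone and metabolic genes. MuSCs are the resident stem cells of skeletal muscle, which proliferate once activated.

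Reference sequences (mm10, plus strand) of the peaks of 6 genes are shown first, because the results turn on which of the peaks of a gene contained a CCAAT box. For each peak, a window of 29 bases is given around the box nearest to the peak centre, with CCAAT or its reverse complement ATTGG in capitals. Where a peak held no box, the window lies at the nearest CAGCTG, an E-box bound by myogenic bHLH factors, or else at TGANTCA, the AP-1 motif, again in capitals. Windows without capitals lie at the centre of peaks with none of the 3 motifs. Rank 1 is the peak with the highest mean level of its gene, called the leading peak. *Per1*, a repressor of the circadian clock, had boxes in 3 of 4 peaks, including both strong ones.

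Per1 rank 1 (chr11:69095025-69095053): ccggtcagatgtCCAATcaacgagttggg
Per1 rank 2 (chr11:69098822-69098850): gggggccagtagCCAATcagatgccagga
Per1 rank 3 (chr11:69097159-69097187): cccacattcccCAGCTGcctcgccccgcc
Per1 rank 4 (chr11:69099946-69099974): acgaagatggggATTGGgggaggagtcgt

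*Kdm6b* encodes the H3K27 demethylase JMJD3. Its 4 highest peaks held a box and its 2 weakest peaks did not.

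Kdm6b rank 1 (chr11:69408780-69408808): gcctagcaggaaCCAATaggagtaaggtt
Kdm6b rank 2 (chr11:69418997-69419025): tgacagcttcccATTGGtcactaggaccc
Kdm6b rank 3 (chr11:69417889-69417917): accccagcagaaCCAATcctagggaatcc
Kdm6b rank 4 (chr11:69411903-69411931): gcgttgtgttcaCCAATcagtctaacagg
Kdm6b rank 5 (chr11:69417607-69417635): gggaaaggaaaggagaaagagatggcacg
Kdm6b rank 6 (chr11:69415428-69415456): ggacaaaccaagggccctgccccccaggc

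*Cirbp*, which encodes a cold-inducible RNA-binding protein, is shown as a gene with 7 peaks. Its leading peak held 2 boxes, the nearer 61 bp from the centre, while 3 of the other peaks held CAGCTG and no box. The shares given below count only boxes within 50 bp of the centre. By that measure the leading peak of *Cirbp* lacks a box and only its rank 4 peak holds one.

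Cirbp rank 1 (chr10:80167646-80167674): gaaagattccagCCAATcaaaacactcag
Cirbp rank 2 (chr10:80161764-80161792): gcagccgcagaCAGCTGtcatgccccaca
Cirbp rank 3 (chr10:80165967-80165995): ccatgagtcacCAGCTGctgtctaggggg
Cirbp rank 4 (chr10:80159957-80159985): gggaaagggctcATTGGtgaaacctcctt
Cirbp rank 5 (chr10:80165165-80165193): gcctggccaagCAGCTGgtggccgcctgg
Cirbp rank 6 (chr10:80161005-80161033): acgggtcatggcttcctgccagagtctgg
Cirbp rank 7 (chr10:80163948-80163976): ttcctggggtgTGACTCAgggctgcagga

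*Ensa* encodes an inhibitor of the phosphatase PP2A-B55 and is shown because 1 peak took almost the whole level. That peak had 6 boxes, the nearest 129 bp from the centre, and the other peaks had 0. With none within 50 bp of its centre, this leading peak counts as lacking a box in the shares given below.

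Ensa rank 1 (chr3:95625225-95625253): ccgctgccgctgATTGGccgcctctgcct
Ensa rank 2 (chr3:95624505-95624533): actaaagtgtgaatgaaaaccttacaaga
Ensa rank 3 (chr3:95629892-95629920): agagctactgcCAGCTGgagCAGCTGctc

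*Mef2d*, a myogenic transcription factor gene, is shown because all 3 peaks carried a box within 50 bp of the centre.

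Mef2d rank 1 (chr3:88140351-88140379): agggccagccaaCCAATcacagccatgga
Mef2d rank 2 (chr3:88142298-88142326): cggggccctcccATTGGccccctgcttgt
Mef2d rank 3 (chr3:88146233-88146261): cactcccctagcATTGGgcagacaacatg

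*Map2k3* encodes a kinase upstream of p38 MAP kinase and is shown as a gene whose level was spread over several peaks. The strongest peaks, rank 1 and rank 2, held a box close to the centre, and ranks 3 and 5 held TGANTCA instead.

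Map2k3 rank 1 (chr11:60927497-60927525): gaaaagtctgtgATTGGtccaaacaaacg
Map2k3 rank 2 (chr11:60931983-60932011): ttttcaggcgggCCAATcagtacgatggg
Map2k3 rank 3 (chr11:60930900-60930928): agggccttgtcTGAGTCAccctggtgccc
Map2k3 rank 4 (chr11:60933711-60933739): agggaggcacttATTGGgggaggtggctg
Map2k3 rank 5 (chr11:60935527-60935555): cttccggtgggTGAGTCAgcagacactgg

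Levels are the authors' size-factor-normalised reads per peak, rounded to whole numbers and not corrected for peak length, given as mean ± SD over the 3 NF-YA libraries. For replicates 1, 2 and 3, a read was worth 0.664, 1.48 and 1.02 normalised reads, and 481469, 226924 and 334651 reads lay in peaks. Replicate 2 thus had the fewest reads in peaks, which is not the sequencing depth of the library. In the study's reporting summary, replicate 1 had shorter reads and fewer uniquely mapped reads than replicates 2 and 3. It also had by far the most called peaks. How far the unified peaks, and so the choice of genes, rest on replicate 1 was not tested. The peaks of the 186 genes summed to 21236, 22526 and 23027 normalised reads in replicates 1, 2 and 3. This was 7.87% ± 0.0739 (SD, n = 3) of the level of all gene-assigned peaks.

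A single peak dominated most of the genes. In the median gene the leading peak held 63.9% ± 0.417 (SD, n = 3) of the summed level, the second 22.1% ± 0.871 and the third 9.93% ± 0.362. Peaks of rank 4 and lower held 5.10% ± 0.510 each. The 3 libraries gave nearly the same median for the leading peak, 63.8% in replicate 1, 63.5% in replicate 2 and 64.3% in replicate 3. When the leading peak was chosen in the other libraries than the one measured, the median was 63.8%. Across genes, the share ranged from 25.7% to 97.0%, with quartiles of 51.5% and 77.1%. The leading peak held more than 50% of the level in 142 genes (76.3%), more than 75% in 51 genes and more than 90% in 7 genes. It was at least 2 times as high as the second peak in 122 genes (65.6%), with a median ratio of 2.85.

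The dominance was less marked in genes with more peaks, as a share must become with more parts. The median was 68.1% in the 141 genes with 3 peaks, 54.3% in the 33 genes with 4 peaks and 53.2% in the 12 genes with 5 to 7 peaks. Genes with 2 peaks, which were not selected, had a median of 78.8% ± 1.44 (SD, n = 3).

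**Figure D1:**
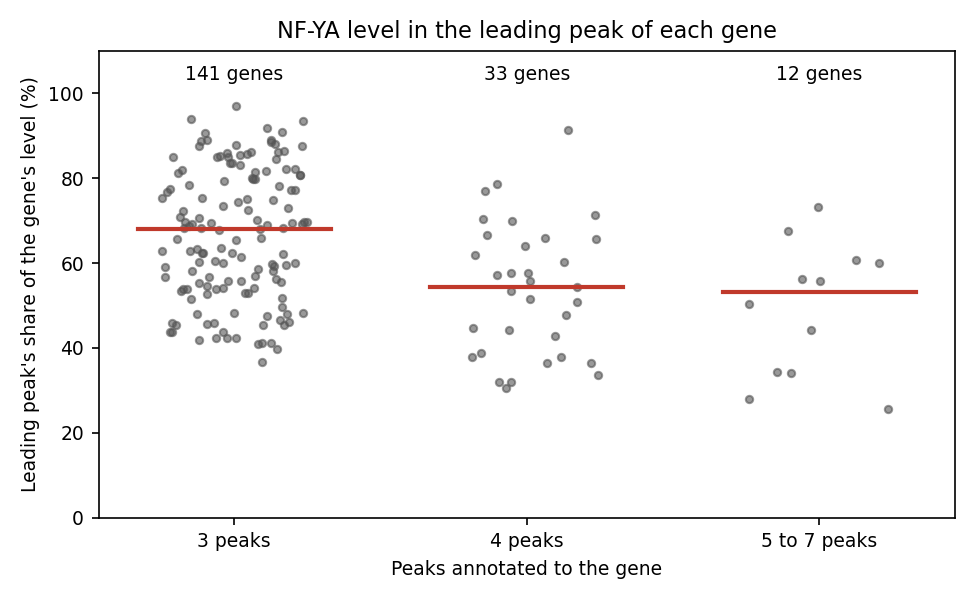
Share of the gene's summed level (%) held by the leading peak, 1 point per gene, for genes with 3, 4 and 5 to 7 peaks, with the medians as red lines. Points spread from 25.7% to 97.0%, and the medians are 68.1%, 54.3% and 53.2%.

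In absolute terms, leading peaks had a median of 50, 49.5 and 52 normalised reads in replicates 1, 2 and 3. Peaks of rank 2 had medians of 15.5, 16 and 16, peaks of rank 3 of 8, 9 and 8, and lower ranks of 7, 7 and 7.5. The order of ranks was therefore the same in every library, which the ranking on the mean of these libraries partly sets. Single peaks of genes with 1 peak had medians of 20, 21 and 21, between rank 1 and rank 2. On the log2 scale, the median of leading peaks exceeded that of single peaks by 1.29 ± 0.0456 (SD, n = 3), a comparison of the highest of several peaks with only 1. Leading peaks were also longer, with a median of 326 bp, against 205.5 bp for rank 2, 139.5 bp for rank 3 and 128 bp for lower ranks. Per kb of peak, the median leading share fell to 50.8% and the log2 difference to single peaks to 0.74.

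Many peaks of low rank rested on few reads. The value was at or below 3 reads in replicate 2, which had the fewest reads in peaks, for 53 of 186 peaks of rank 3 and for 19 of 64 peaks of lower rank, but for only 1 leading peak. In replicate 1 this concerned 2 peaks of rank 3 and 2 of lower rank. The median coefficient of variation over the libraries was 14.8% for leading peaks, 24.0% for rank 2, 34.5% for rank 3 and 39.0% below.

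The leading peak was the same in all 3 libraries in 150 of the 186 genes (80.6%, 95% Wilson interval 74.4% to 85.7%). In genes with 2 peaks this was the case for 623 of 731 (85.2%). Pairs of libraries shared the leading peak in 159 genes (replicates 1 and 2), 166 genes (1 and 3) and 158 genes (2 and 3). The 36 genes in which it changed had a median leading share of 42.4%, against 68.2% in the other genes, but both groups overlapped. The share reached 60.3% in genes with a change (*Herpud1*) and went down to 34.4% in genes without (*Map2k3*). They were also lower, with a median summed level of 60.0 against 91.2. A leading peak that was higher in each library than every other peak of its gene in any library was found in 139 genes (74.7%). The background for this criterion over all 917 genes with 2 or more peaks was 73.8%, so the 186 genes did not stand apart.

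The position of the peaks was determined relative to the 5' end of the assigned gene, from which the peak could be up to about 10000 bp away. Peaks within 1000 bp of the TSS, here called promoter peaks, made up 213 of the 622 peaks (34.2%, interval 30.6% to 38.1%). In genes with 1 or 2 peaks, 63.4% of 5569 peaks were promoter peaks. The share already fell from 67.5% in genes with 1 peak to 51.8% in genes with 2 peaks. The promoter peaks of the member genes carried 48.7% ± 0.259 (SD, n = 3) of the level, with 48.4%, 48.6% and 49.0% in the 3 libraries. Their median level was 22.7 normalised reads, against 29.7 for promoter peaks of genes with 1 or 2 peaks. Counting the TSS of every annotated transcript of any gene, 70.5% of the level lay within 1000 bp of a start.

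Beyond the promoter, more peaks lay downstream than upstream. Between 1000 and 5000 bp downstream there were 131 peaks, which held 21.6% ± 0.342 (SD, n = 3) of the level, and further downstream 117 peaks with 11.9% ± 0.408. On the upstream side, 86 peaks between 1000 and 5000 bp held 8.70% ± 0.463, and 75 peaks further away held 9.06% ± 0.604. The TSS was the 5' end of the gene, so its later transcript starts can lie only downstream. Such a start was within 1000 bp of 47 of the 131 and 20 of the 117 downstream peaks, and of 0 upstream peaks. Genes with 1 or 2 peaks also had more peaks downstream (596 and 519 in these zones) than upstream (479 and 443). For the member genes, the median level hardly differed among these 4 zones, from 12.7 to 13.8 normalised reads. Of all 622 peaks, 286 (46.0%, interval 42.1% to 49.9%) were centred upstream of the TSS, against 66.9% of the peaks of genes with 1 peak and 54.7% in genes with 2 peaks. Peaks were found on both sides of the TSS in 123 genes, only upstream in 26 and only downstream in 37. First and last peak of a gene were a median of 6292 bp apart, and neighbouring peaks were separated by a median of 1338 bp. In 130 of 436 cases (29.8%) the gap was under 500 bp.

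The leading peak was not always the one at the TSS. It was the peak nearest to the TSS in 91 genes (48.9%, interval 41.8% to 56.1%). If each peak of a gene were equally likely to lead, this would be 30.9%. In genes with 2 peaks it was 69.8%, but there the share under equal likelihood is higher by construction. In 84 genes (45.2%) the leading peak was a promoter peak, and in 53 genes (28.5%) it was more than 5000 bp away. At least 1 promoter peak was present in 130 genes, and it led in 84 of them (64.6%). Another 56 genes had no promoter peak. Leading peaks were centred upstream in 53.2% and other peaks in 42.9%.

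**Figure D2:**
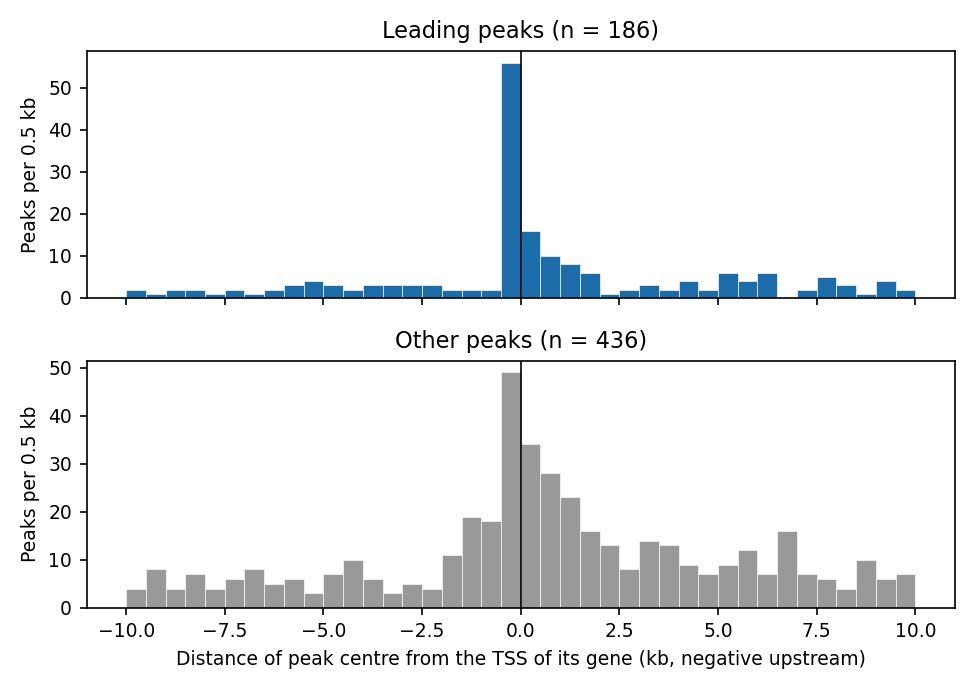
Number of leading peaks (top, n = 186) and other peaks (bottom, n = 436) per 0.5 kb bin of distance between peak centre and TSS, in kb, negative upstream. Leading peaks concentrate in the bin directly upstream of the TSS, other peaks spread further into the downstream side, and 53 leading peaks lie beyond 5 kb on either side.

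Part of the 409 peaks outside the promoter of their assigned gene lay at other annotated starts. For 42 of them the TSS of another gene was within 1000 bp, and for 62 only another transcript start of the same gene. The remaining 305 peaks were at no annotated start. Median levels were 15.0, 19.2 and 12.7 normalised reads in these 3 classes, and 13, 18 and 71 of the peaks led their gene. Inside their own gene, 52 leading peaks were centred in introns, 16 in exons with untranslated sequence and 4 in other exons, while 114 lay outside the gene body.

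The 436 other peaks were located at a median gap of 2617 bp from the leading peak. Of these, 88 (20.2%) lay within 500 bp of it and had a median of 10.7 ± 1.53 (SD, n = 3) normalised reads. The 348 peaks further away had a median of 10.7 ± 0.577. Close and distant companions of a leading peak thus differed by less than the spread between libraries. Joining peaks with gaps under 500 bp left 112 genes with 3 or more peaks, in which the leading share was 63.3%.

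Most member genes (158 of 186, 84.9%) were protein-coding, as were 83.1% of the genes with 1 or 2 peaks. The other genes included 7 antisense, 5 lincRNA and 3 miRNA genes, and 28 of the 186 had no symbol. Chromosome 11 contributed 25 genes (13.4%, interval 9.27% to 19.1%) and chromosome 7 contributed 22 (11.8%, interval 7.94% to 17.3%). Among genes with 1 or 2 peaks, 9.16% lay on chromosome 11 and 9.12% on chromosome 7, just below the former interval and inside the latter. This difference was not tested.

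Among the genes with the most peaks, *Cirbp* (ENSMUSG00000045193, chr10:80165985-80172786, plus strand) had 7 peaks and a summed level of 389 ± 25.3 (SD, n = 3). Its leading peak at chr10:80167232-80167965, in the gene 1613 bp downstream of the TSS and near another transcript start of *Cirbp*, had 182, 245 and 229 normalised reads in replicates 1, 2 and 3. The peak at the TSS, centred 47 bp upstream, had 38, 55 and 37. The other 5 peaks lay upstream up to 6002 bp from the TSS, with means from 16.0 to 43.7. In each library the leading peak was more than 4 times as high as any other, and it held 56.3% ± 5.50 of the level.

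*Kdm6b* (ENSMUSG00000018476, chr11:69398508-69413675, minus strand) had 6 peaks, and 2 of them made up most of its level of 410 ± 32.2 (SD, n = 3). The intronic peak at chr11:69408547-69409130, 4837 bp downstream, had 181, 211 and 229 normalised reads. The peak at chr11:69418804-69419219, 5336 bp upstream, had 139, 180 and 127. Their ranges did not overlap but came within 1 normalised read of each other, and the shares were 50.4% ± 3.79 and 36.2% ± 5.41. The other 4 peaks were at 5.67 to 25, and no peak was found within 1000 bp of the TSS.

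*Nfe2l1* (chr11:96817414-96829968, minus strand), which encodes a transcription factor that controls proteasome genes, followed the promoter type. The promoter peak, 108 bp upstream of the TSS, had 195, 247 and 250 normalised reads and 73.2% ± 4.22 (SD, n = 3) of the level. Its other 5 peaks, up to 8575 bp upstream and 7105 bp downstream, had means from 4.00 to 28.3. *Tlcd2* (chr11:75461715-75470899, plus strand), a gene of membrane lipid composition, had 236, 297 and 268 in a peak 330 bp upstream of its TSS. This peak was also within 1000 bp of the TSS of Mir22hg, the host gene of the miRNA miR-22, as were 2 other peaks of *Tlcd2*.

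The remaining pair of genes with the most peaks had no symbol. ENSMUSG00000107570, of a class that still needs experimental evidence, had 7 peaks within 5587 bp and a leading peak with 64, 100 and 83 normalised reads, 55.9% ± 7.20 (SD, n = 3) of its level. The small nuclear RNA gene ENSMUSG00000088128 had the lowest leading share of all 186 genes, 25.7% ± 9.62. Its 6 peaks lay 6629 to 9881 bp downstream of its TSS with means from 8.67 to 21, and 4 of them were within 1000 bp of a transcript start of *Plec*, the gene of the cytoskeletal linker plectin. The leading peak of this snRNA gene had 13, 28 and 22 and overlapped the range of the second peak, 19, 13 and 23.

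**Figure D3:**
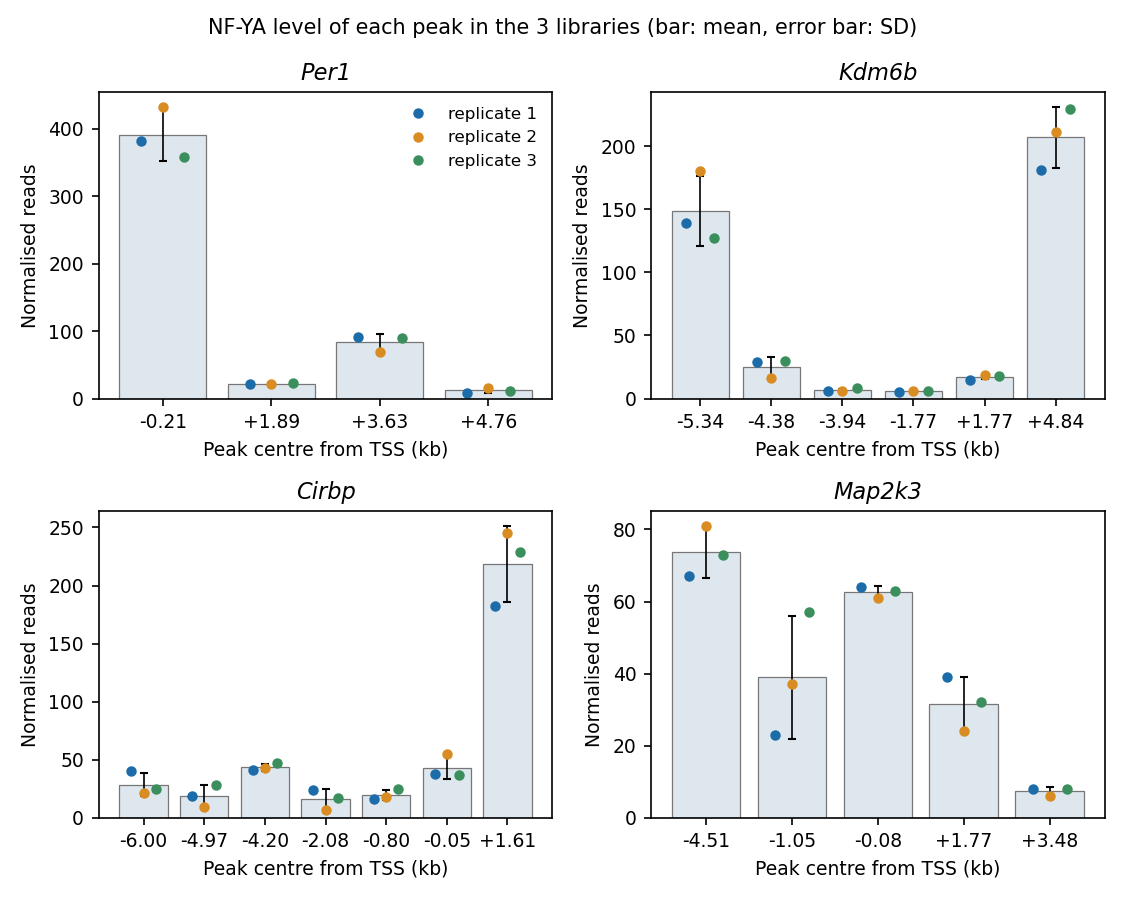
Normalised reads of every peak of *Per1*, *Kdm6b*, *Cirbp* and *Map2k3* in replicates 1 to 3 (points), with mean (bar) and SD (error bar), ordered by the distance of the peak centre from the TSS in kb. A single peak leads in *Per1* (382, 433 and 358) and *Cirbp* (182, 245 and 229), a pair of distant peaks in *Kdm6b*, and several similar peaks share the level in *Map2k3*.

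Of the other genes with 5 peaks, *Mamstr*, which encodes a coactivator of MEF2 factors, had its leading peak 3797 bp downstream, at a further transcript start of its own, with 216, 208 and 208 normalised reads. The peak 1117 bp upstream had 102, 80 and 85 and the one 138 bp upstream 33, 25 and 33, without overlap between the 3 peaks. In *Scd2*, a stearoyl-CoA desaturase gene, a promoter peak with 96, 117 and 107 and a peak 9338 bp upstream with 96, 111 and 112 overlapped in range. *Rasa3*, a Ras GTPase-activating protein gene, had 112, 89 and 99 in the peak 54 bp upstream, 60.0% ± 6.97 (SD, n = 3) of its level. *Rrm2*, which encodes a subunit of ribonucleotide reductase, was split evenly, with the leading peak at 28.1% ± 3.78. *Lama5*, a laminin gene, had no promoter peak, and peaks 7985 bp downstream (22, 22 and 32) and 2032 bp upstream (31, 24 and 20) shared its level. These 5 genes were named because they complete the group, after their values were seen.

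The highest summed level was found for *Sin3a* (ENSMUSG00000042557, chr9:57072040-57128366, plus strand), which encodes the scaffold of a histone deacetylase corepressor complex, with 774 ± 93.6 (SD, n = 3). Its leading peak at chr9:57075731-57076483 had 408, 498 and 583 normalised reads and 10 CCAAT boxes. It lay 4066 bp downstream of the annotated 5' end and within 1000 bp both of a later transcript start of *Sin3a* and of the TSS of the neighbouring gene 2700012I20Rik. Another strong peak, 1565 bp downstream, had 250, 257 and 260. Both peaks were separated in every library, while the 2 remaining peaks had means of 11.

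*Ensa* (ENSMUSG00000038619, chr3:95624993-95632102, plus strand) had 452, 523 and 580 normalised reads in its promoter peak at chr3:95624682-95625538. This was the highest peak and the highest share, 97.0% ± 0.313 (SD, n = 3), of all 186 genes. The other peaks of *Ensa* had 5, 12 and 8 and 8, 3 and 12, in part at or below 3 reads. *Ing1* (chr8:11555571-11563251, plus strand), which encodes a reader of H3K4me3 in a Sin3 complex, had 326, 448 and 471 in a peak 2589 bp downstream, near another transcript start of the gene. The peak 400 bp downstream of its TSS had 104, 81 and 93, clearly less in each library.

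*Per1* (ENSMUSG00000020893, chr11:69095217-69109960, plus strand) showed 382, 433 and 358 normalised reads in the peak at chr11:69094699-69095317, 210 bp upstream of the TSS. Its second peak, 3631 bp downstream near another transcript start, had 91, 69 and 90, and the leading share was 77.0% ± 3.13 (SD, n = 3). *Prmt1* (chr7:44975989-44986568, minus strand), the gene of the main enzyme for asymmetric arginine dimethylation, had 361, 384 and 354 in the peak 63 bp upstream. Its peak 2113 bp downstream had 56, 59 and 69, far below in every library, and the leading share was 82.0% ± 1.48.

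**Figure D4:**
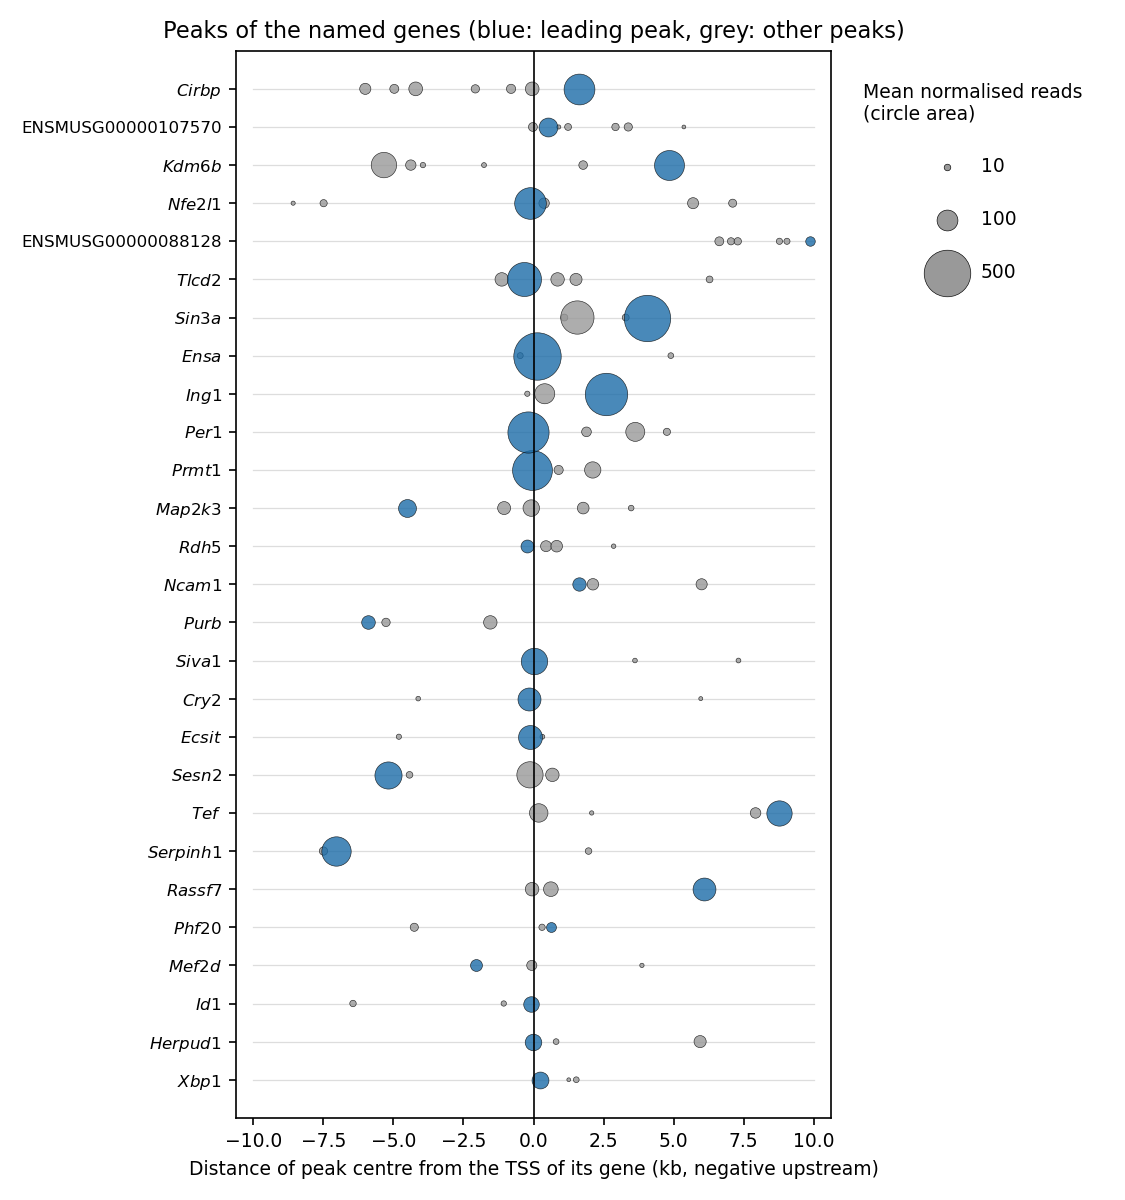
Peaks of the 27 genes named by the rule, placed by the distance of the peak centre from the TSS (kb, negative upstream), 1 gene per line. Circle area is the mean level in normalised reads, blue marks the leading peak, and the leading peak sits at the TSS in *Ensa*, *Per1* and *Prmt1* but several kb away in *Sin3a*, *Kdm6b*, *Sesn2*, *Tef* and *Serpinh1*.

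Genes with an even split were led by *Map2k3* (chr11:60932033-60952811, plus strand) among those with a summed level of at least 100. Its peak 4514 bp upstream had 67, 81 and 73 normalised reads and the promoter peak, 80 bp upstream, 64, 61 and 63. The ranges of both did not overlap, but they were only 3 normalised reads apart, and the leading share was 34.4% ± 3.84 (SD, n = 3). *Rdh5*, a retinol dehydrogenase gene, had 37, 38 and 41 in the peak 235 bp upstream of the TSS, and 33, 34 and 27 in a peak 827 bp downstream. All promoter peaks of *Rdh5* were also within 1000 bp of the TSS of *Bloc1s1*.

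In *Ncam1*, the gene of a cell adhesion molecule of myogenic cells, all 3 peaks were intronic, from 1624 to 5998 bp downstream. They had 38, 53 and 33, 19, 34 and 38, and 24, 28 and 34 normalised reads, so that the ranges overlapped. *Purb*, which encodes a single-stranded DNA-binding protein, had 52, 38 and 38 in a peak 5918 bp upstream and 50, 41 and 34 in a peak 1541 bp upstream. These ranges overlapped as well.

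At the other end, *Siva1*, *Cry2* and *Ecsit* followed *Ensa* in the share of the leading peak. *Siva1*, an apoptosis regulator gene, had 146, 152 and 184 normalised reads at its TSS and 94.0% ± 2.65 (SD, n = 3) of the level. *Cry2*, like *Per1* a repressor of the clock, had 118, 130 and 118 in the peak 158 bp upstream, with 93.4% ± 1.40. *Ecsit*, which encodes an adaptor of Toll-like receptor signalling and complex I assembly, had 125, 126 and 145 in the peak 133 bp upstream, with 91.9% ± 2.41. In these 3 genes the other peaks had means from 3.67 to 6.33.

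Leading peaks more than 5000 bp from the TSS were highest in summed level for *Sesn2*, *Tef*, *Serpinh1* and *Rassf7*. *Sesn2*, a stress-induced inhibitor of mTORC1, had 175, 157 and 178 normalised reads 5203 bp upstream. Its promoter peak, 126 bp upstream, had 137, 176 and 164 and was the higher one in replicate 2, so that the ranges overlapped. *Tef*, which encodes a PAR bZIP factor of the clock output, had 128, 152 and 163 in an intronic peak 8775 bp downstream, near another start of its own. The peak 186 bp downstream of the *Tef* TSS had 70, 71 and 95, lower in every library.

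*Serpinh1*, which encodes the collagen chaperone HSP47, had 201, 183 and 213 normalised reads in a peak 7039 bp upstream and 88.4% ± 0.675 (SD, n = 3) of its level there. It had no promoter peak, and no annotated start lay within 1000 bp of the leading peak. *Rassf7* had 121, 124 and 117 in a peak 6085 bp downstream, outside the gene. The TSS of Mir210, a hypoxia-induced miRNA, was within 1000 bp of this peak. The *Rassf7* promoter peak, 52 bp upstream, had 50, 37 and 40.

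Over all genes with a peak, 3.70% had 3 or more peaks and 14.6% had exactly 2, and the gene lists were read against these shares. Of 28 chromatin genes, 12 had a peak and 3 had at least 3 peaks (*Kdm6b*, *Prmt1* and *Phf20*). Of 23 muscle stem cell genes, 10 had a peak and 1 was a member, *Mef2d*, while 7 had exactly 2 peaks. Of 8 genes listed as chaperone and ER stress genes, 6 had a peak. The 2 members among them, *Herpud1* and *Xbp1*, do not encode chaperones. Of 17 early response genes, 12 had a peak and 1 was a member, *Id1*. None of the 26 listed cell cycle genes, of which 20 had a peak, had more than 2 peaks. The same applied to 9 listed genes of NF-Y and its partners, 8 with a peak, and to 11 listed matrix and signalling genes, 4 with a peak. The lists were short selections, so a list without members does not mean that its class was absent. Members outside the lists include the laminin gene *Lama5*, the collagen chaperone gene *Serpinh1*, and *Sin3a* and *Ing1* of histone deacetylase complexes.

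*Mef2d* had 29, 38 and 31 normalised reads 2039 bp upstream and 21, 18 and 32 in the peak 62 bp upstream of the TSS, with overlapping ranges. *Herpud1*, a gene of ER-associated degradation, had 78, 38 and 74 at the TSS and 23, 49 and 30 in a peak 5944 bp downstream. Its order thus changed in replicate 2. *Xbp1*, a transcription factor gene of the unfolded protein response, had 56, 61 and 80 in the peak 220 bp downstream and 85.7% ± 7.11 (SD, n = 3) of the level. *Id1*, an inhibitor of bHLH factors, had 38, 69 and 60 in the peak 79 bp upstream, with 77.3% ± 6.61. *Phf20*, a subunit of the NSL acetyltransferase complex, was the weakest of the 3 members from the chromatin list. It had 19, 24 and 25 in its leading peak 611 bp downstream and 13, 19 and 14 in a peak 4253 bp upstream.

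Some other members were looked up after their values were seen. *Nr1d1*, a repressor of the clock, had its leading peak in an intron 1250 bp downstream, with 62, 49 and 51 normalised reads, above the 14, 16 and 30 of the peak at its TSS. *Lmna*, the gene of the nuclear lamins A and C, had 117, 148 and 171 in an intronic peak 6418 bp downstream, near another of its starts, and 17, 19 and 12 at the TSS. *Fdft1*, the squalene synthase gene, had 116, 99 and 95 in a peak 1528 bp downstream and 13, 12 and 17 at the 5' end. *Eno1*, a glycolytic enzyme gene, had 90, 106 and 113 in the promoter peak 398 bp downstream. *Gapdh*, another glycolytic gene, had 4 weak peaks with means from 10.7 to 17.0, and no peak of *Gapdh* had a CCAAT box near its centre.

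The CCAAT box was not used to choose the genes, and its frequency was tested. The rule does bring in peaks of low rank, which genes with 1 peak lack by construction. A box on either strand within 50 bp of the peak centre was present in 249 of the 622 peaks (40.0%, interval 36.3% to 43.9%). In windows of the same length 1000 bp to either side of these peaks, 12.9% and 11.6% held a box. Over all 9056 peaks the share was 52.9%, and in peaks of genes with 1 and 2 peaks it was 62.4% and 48.8%. Compared with the peaks of genes with 1 or 2 peaks (58.8% of 5569), a box was less frequent, with a difference of -18.8 percentage points (95% interval -22.6 to -14.9). The test was a linear probability model across peaks with errors clustered by gene (two-sided Wald test, adjusted p = 1.90e-21). With promoter position as a covariate the difference was -13.5 percentage points, and with promoter position and log2 mean level it was -13.7. Leading peaks alone held a box in 68.3%, against 62.4% in genes with 1 peak. A trait of these genes therefore cannot be told apart from their additional peaks of low rank. The p-values given here describe only this set of peaks, whose members cannot stand in for replicate animals or cultures.

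Within the genes, boxes were concentrated in the leading peaks. A box was present in 127 of 186 leading peaks (68.3%, interval 61.3% to 74.5%) and in 122 of 436 other peaks (28.0%, interval 24.0% to 32.4%). The difference was 40.3 percentage points (95% interval 32.7 to 47.9, adjusted p = 3.26e-25, same test). The share decreased with rank, from 68.3% to 34.4% in rank 2, 24.2% in rank 3 and 20.3% below. Position at the promoter changed little, since the difference was 39.4 percentage points with promoter position as a covariate. Other peaks within 1000 bp of the TSS held a box in 28.7% and those further away in 27.7%, while leading peaks held one in 76.2% at promoters and 61.8% elsewhere. Leading peaks are also higher by definition. With the log2 mean level as a covariate, an alternative chosen after seeing the data, the difference was 19.7 percentage points (95% interval 8.87 to 30.6, adjusted p = 0.000735).

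Counted over whole peaks, leading peaks had 5.24 boxes per kb and other peaks 2.73. No peak had a box near its centre in 30 genes, 1 peak in 83 genes, 2 peaks in 53 genes and 3 peaks in 20 genes. All peaks of the gene had one in 9 genes, among them *Mef2d* and *Cry2*, as in the windows of *Mef2d* printed above. Of the peaks away from the promoter, those near another start of the same gene held a box in 51.6%, those near the TSS of another gene in 40.5% and those at no annotated start in 32.5%. Other peaks within 500 bp of the leading peak held a box in 21.6% of 88 cases, and those further away in 29.6% of 348.

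Other motifs showed a different distribution, which is given as a description because these motifs were chosen after earlier results were known. CAGCTG, which reads the same on both strands, was present within 50 bp of the centre of 22 leading peaks (11.8%, interval 7.94% to 17.3%) and of 96 other peaks (22.0%, interval 18.4% to 26.1%). In genes with 1 peak it was present in 9.64% and over all peaks in 15.1%. The flanks of the leading peaks held it in 10.5% and those of the other peaks in 6.08%. TGANTCA, also the same on both strands, occurred in 5.91% of leading peaks and 13.3% of other peaks, compared with 7.01% in genes with 1 peak and 11.5% over all peaks. Its share in the flanks was 1.88% and 2.52%.

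Both motifs were more frequent outside the promoter, and for TGANTCA the order depended on position. At promoters it was found in 10.1% of non-leading peaks and 2.24% of peaks of genes with 1 peak, but outside promoters in 14.7% and 17.0%. CAGCTG was found in 4.76% of leading promoter peaks and 17.6% of the other leading peaks, and among non-leading peaks in 14.0% at promoters and 25.4% elsewhere. Member peaks without a CCAAT box near the centre held CAGCTG in 100 of 373 cases (26.8%). In genes with 1 or 2 peaks, peaks without a CCAAT box held it in 354 of 2295 cases (15.4%). Split by position, these shares were 31.4% and 24.4% outside promoters, and 16.1% and 7.42% at promoters. The windows of *Cirbp*, with CAGCTG in ranks 2, 3 and 5, and of *Map2k3*, with TGANTCA in rank 5, are examples. In rank 3 of *Map2k3* the motif was in the peak but too far from its centre to be counted in these shares. A match of letters does not show that a factor was bound.

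**Figure D5:**
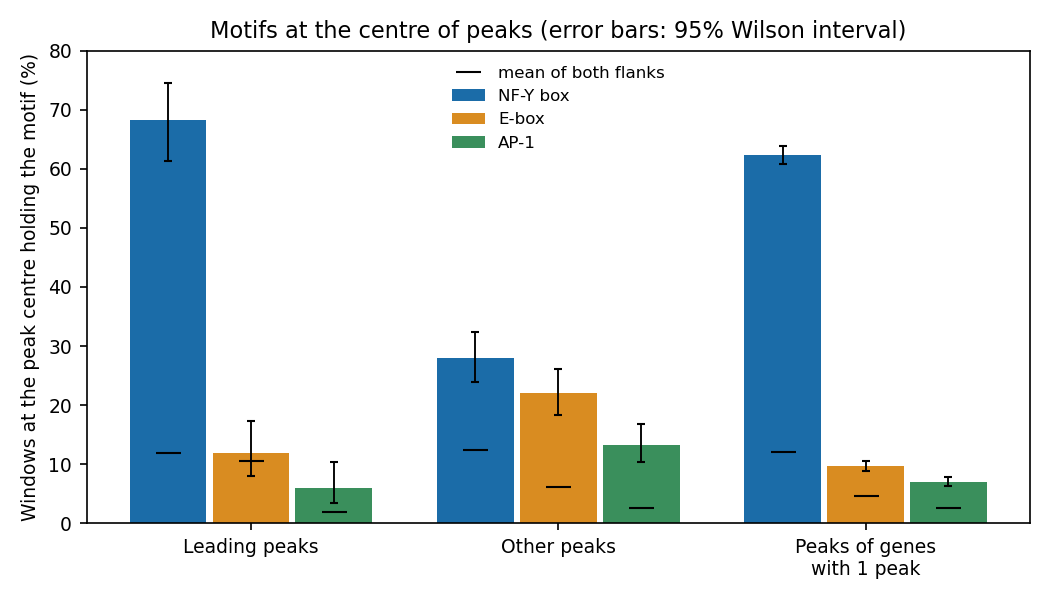
Share of 101 bp windows at the peak centre (%) that hold the CCAAT box of NF-Y, the E-box CAGCTG or the AP-1 motif, for leading peaks, other peaks and peaks of genes with 1 peak, with 95% Wilson intervals as error bars and the mean of both flanks as black lines. The NF-Y box falls from 68.3% in leading to 28.0% in other peaks, and the E-box is at 11.8% and 22.0%.

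At the threshold of the selection, genes with exactly 3 peaks had a median summed level of 79.3 normalised reads and a median of 7.33 in their weakest peak. Genes with exactly 2 peaks, just outside, had medians of 56.3 and 9.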

How the data were processed

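CUT&RUN was performed on 3 NF-YA and 3 IgG samples per the labels, which give each replicate a number. The authors trimmed reads with Trimmomatic 0.39, aligned them to mm10 with STAR 2.7.9a, removed duplicates with Picard 2.25.5 and, per NF-YA library, ran MACS2 with the IgG library as control. The authors counted unified peaks with featureCounts, normalised with DESeq2 1.30.0 and assigned each peak to the nearest gene with a TSS within 10000 nt. The deposited values are a score, namely size-factor-scaled read numbers that the authors rounded to whole numbers. Only the NF-YA columns were used, and 0 columns remained unassigned. A change common to all peaks would be lost in this scaling, whereas shares within a gene and library do not depend on it.

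The reads behind a value were estimated from the numbers that rounding leaves out. A count model was not used, since single counts were not recovered. Starts were printed counted from 1, and annotation came from GENCODE M21 (identical gene limits for 6141 of 6191 assigned peaks). CCAAT was searched on both strands of GRCm38.p6. Differences in CCAAT content were tested with a linear probability model, errors clustered by gene and Benjamini-Hochberg adjustment over 2 tests. Functions were tested on simulated data. The study describes 3 biological replicates. Intervals are 95% Wilson intervals unless stated, and intervals and the floor of 3 reads (1.99, 4.43 and 3.06 normalised reads in replicates 1, 2 and 3) cover counting error only. Python 3.11.15 was used with numpy 2.4.6, pandas 2.3.3, scipy 1.17.1, pysam 0.24.0 and matplotlib 3.10.9.

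The member genes, gene lists and tests were chosen with earlier results of these data known. Named genes were the 6 with the most peaks, the 5 with the highest summed level, the 4 most even and 4 most uneven with a summed level of at least 100, the 4 highest with a leading peak over 5000 bp from the TSS, and members of 7 gene lists. Alternatives covered values per kb, a minimum mean of 10, joined peaks, 4 or more peaks per gene, removal of peaks at other TSSs, other promoter limits and windows, covariates and leaving out each replicate.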

Additional observations from a re-analysis of the deposited data

How the results depend on the processing

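Of 58 alternative values for 8 results, 39 were classed as the same as the main value. The other 19 moved beyond its SD over libraries or its interval. Most results are percentages, which cannot change direction. The level difference and the CCAAT differences could have done so and kept their direction. Leaving out 1 library at a time gave leading shares of 63.6% to 64.1%, promoter shares of the level of 48.5% to 48.8%, a leading peak nearest to the TSS in 49.5% to 50% of genes, log2 level differences to single peaks of 1.27 to 1.32, and CCAAT differences between leading and other peaks of 41.1 to 41.8 percentage points. In these runs the genes and peaks, called with every library, stayed fixed. The values therefore do not show how far the selection depends on a library. Larger shifts followed from how a peak was counted. Per kb of peak, the leading share was 50.8%, the promoter share 43.3%, agreement on the leading peak 67.7% and the log2 level difference 0.74. With peaks of a mean of at least 10 (76 genes left), these were 57.4% for the leading share, 47.3% for the promoter share and 1.14 for the level difference. With joined peaks (112 genes left) they were 63.3%, 44.5% and 1.18. Genes with 4 or more peaks (45 genes) had a leading share of 53.2%, a promoter share of 40.6%, a leading peak nearest to the TSS in 37.8% and agreement in 68.9%. Without peaks at other genes' TSSs (143 genes left), the leading share was 65.8% and the promoter share 49.7%. The promoter share was 42.2% with a limit of 500 bp, 60.3% with 2000 bp and 70.5% with any transcript start. The cause of these shifts was not tested beyond the construction of each alternative.

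The CCAAT differences passed the threshold under every alternative run, from 19.7 to 47.3 percentage points between leading and other peaks and from -22.1 to -13.5 between members and genes with 1 or 2 peaks. No paired analysis was possible because IgG values were not analysed here, although the replicate numbers are shared between NF-YA and IgG samples. Errors of the CCAAT tests were clustered by gene, since peaks of a gene share their source. Few reads limit the precision of weak peaks. Among rank 3 peaks, 1.08%, 28.5% and 13.4% had no more than 3 reads in replicates 1, 2 and 3, and the cause of this difference was not tested.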
